A study of Homo sapiens with 4 samples.

Results

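Genes of endoplasmic reticulum (ER) protein folding and of the unfolded protein response were compared between Jurkat cells transfected with LEF1 siRNA (siLEF1) and Jurkat cells transfected with non-targeting siRNA (siNT). A list of 34 genes was taken by symbol, and each gene was read by the probe set that names it alone and has the highest mean signal. In this way 33 of the 34 genes were measured, of 19775 genes on the array. The remaining gene, SYVN1, which encodes the ubiquitin ligase HRD1, has only a probe set that is annotated to a further gene, and it was given no value. Jurkat is a human T-cell acute lymphoblastic leukemia line. Both groups received 100 nM of a pool of siRNAs with a lipid transfection reagent and were harvested after 24 h, and each had 2 arrays that the sample labels call biological replicates. The control arrays are therefore of transfected cells, non-transfected cells were not analysed here, and every value comes from this 1 cell line.

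Proteins that enter the secretory pathway are folded in the ER by HSPA5 (BiP) and HSP90B1 (GRP94), by the lectins calnexin and calreticulin, and by disulfide isomerases. When unfolded proteins accumulate, the sensors ATF6, IRE1 (ERN1) and PERK (EIF2AK3) start the unfolded protein response. IRE1 splices the XBP1 mRNA into a form that encodes an active transcription factor, ATF6 is cut in the Golgi to release another, and PERK phosphorylates a translation initiation factor and thereby raises ATF4 and DDIT3 (CHOP). XBP1 and ATF6 induce chaperones and the machinery that returns misfolded proteins to the cytosol for degradation (ERAD). The array measures mRNA levels, and neither XBP1 splicing nor the cutting or phosphorylation of the sensors can be read from it.

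RMA signals (log2) were analysed as deposited, and siLEF1 minus siNT was tested with limma over all 54613 probe sets that are not controls. To be called, a probe set needed a fold change above 2 and a Benjamini-Hochberg adjusted p below 0.05. A log2 difference below is siLEF1 minus siNT, and SE is its standard error. The RNA is from bulk cultures, so fewer expressing cells and less RNA per cell cannot be told apart. LEF1 had 11.24 and 11.56 on the siLEF1 arrays against 12.30 and 11.92 on the siNT arrays in its brightest probe set, a difference of -0.71 on the log2 scale (SE 0.20, limma adjusted p = 0.191), so the targeted transcript was lower on both siLEF1 arrays and did not pass. Its other probe sets had log2 differences of -0.93 and -0.19. The arrays correlated at r = 0.979 to 0.995 across probe sets, with the lowest values between siNT replicate 2 and the siLEF1 arrays. The 5' minus 3' log2 signal of a control gene is a measure of RNA integrity. For ACTB it was -1.08 and -1.55 on the siLEF1 arrays against -1.80 and -1.95 on the siNT arrays. For GAPDH it was -0.34 and -0.32 on the siLEF1 arrays against -0.39 and -0.65 on the siNT arrays, where siNT replicate 1 lay near the siLEF1 arrays. The part of RNA integrity in the results below was not tested. All 12 T-cell markers examined lay above the array median on the siLEF1 arrays and on siNT replicate 1, and 11 did on siNT replicate 2. Their mean log2 signal was 9.42 and 9.48 on the siLEF1 arrays against 9.42 and 8.93 on the siNT arrays, and 5 of the 12 were higher at an unadjusted p under 0.05 (median log2 difference 0.32). The part of this shift in the results was not tested. The B-cell and plasma cell markers averaged 4.17 to 4.27, under the array medians of 4.84 to 4.85, and 2 or 3 of the 7 lay above the median by array. The myeloid markers averaged 4.06 to 4.47, with 2 of the 6 above the median on every array. Epithelial and stromal markers averaged 4.88 to 5.07, above the medians, with 4 of the 7 above the median on every array. The 3 erythroid markers measured averaged 5.45 and 5.35 on the siLEF1 arrays against 6.15 and 5.74 on the siNT arrays, and their part was likewise not tested. Precision is limited by the 2 arrays per group, and p-values measure only the spread between these arrays.

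ER stress genes were mostly lower in siLEF1 cells by value, with the most negative differences in the BiP co-chaperone gene DNAJB9, the sensor gene EIF2AK3, HSPA5 (BiP), XBP1 and DERL2, whereas the calreticulin gene CALR and the brightest probe set of the oxidase gene ERO1A were higher. A second ERO1A probe set of nearly the same brightness was not higher. None of these differences passed the test over the whole array in the brightest probe set. Of the 33 members 0 were called lower and 0 called higher, and the smallest adjusted p from limma was 0.0599, where 0.183% of all probe sets were called lower and 0.0238% called higher. At an unadjusted p under 0.05, 13 members were lower (39.4%) and 2 were higher (6.06%). Among the brightest probe sets of all genes the same rule took 11.5% lower and 7.00% higher. All but 2 members had a mean signal of at least 8, and among genes that bright 13.9% were lower and 11.8% higher by this rule. Both siLEF1 arrays lay under both siNT arrays in 22 members (66.7%) and above them in 2 (6.06%). The shares were 26.4% and 28.1% of all genes, and 34.9% and 35.4% of genes with a mean signal of at least 8. Since the members were chosen with earlier results of these data known, these counts are a description.

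The median log2 difference of the members was -0.28, with values from -1.57 to 0.72, and 27 of the 33 were below 0. Over all genes the median was 0.02 and 46.5% were below 0. Over genes with a mean signal of at least 8 the median was 0.01 and 48.5% were below 0. All members lay above the median signal of every array. The scale of the arrays bears on the direction of small values. When the arrays were centred on the median of 15 housekeeping genes, every log2 difference moved by -0.247, the members' median was -0.53 and 5 members were called lower, namely DNAJB9, HSPA5, XBP1, EIF2AK3 and DERL2. Under the same centring 2129 of the 54613 probe sets were called lower, against 100 in the values as deposited. CALR and ERO1A stayed above 0 under this centring, whereas CANX, P4HB, PDIA6 and HSP90B1 turned below 0. The housekeeping median was the signal of HPRT1 on both siLEF1 arrays and siNT replicate 1 (11.58, 11.43 and 11.11). On siNT replicate 2 it was that of EMC7 (11.4). The shift of -0.247 therefore rests on these genes, whose own log2 differences were 0.68 for HPRT1 and -0.48 for EMC7. The median log2 difference of the 15 housekeeping genes was 0.04. Of these 15 genes 3 were lower and 1 was higher at an unadjusted p under 0.05.

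**Figure D1:**
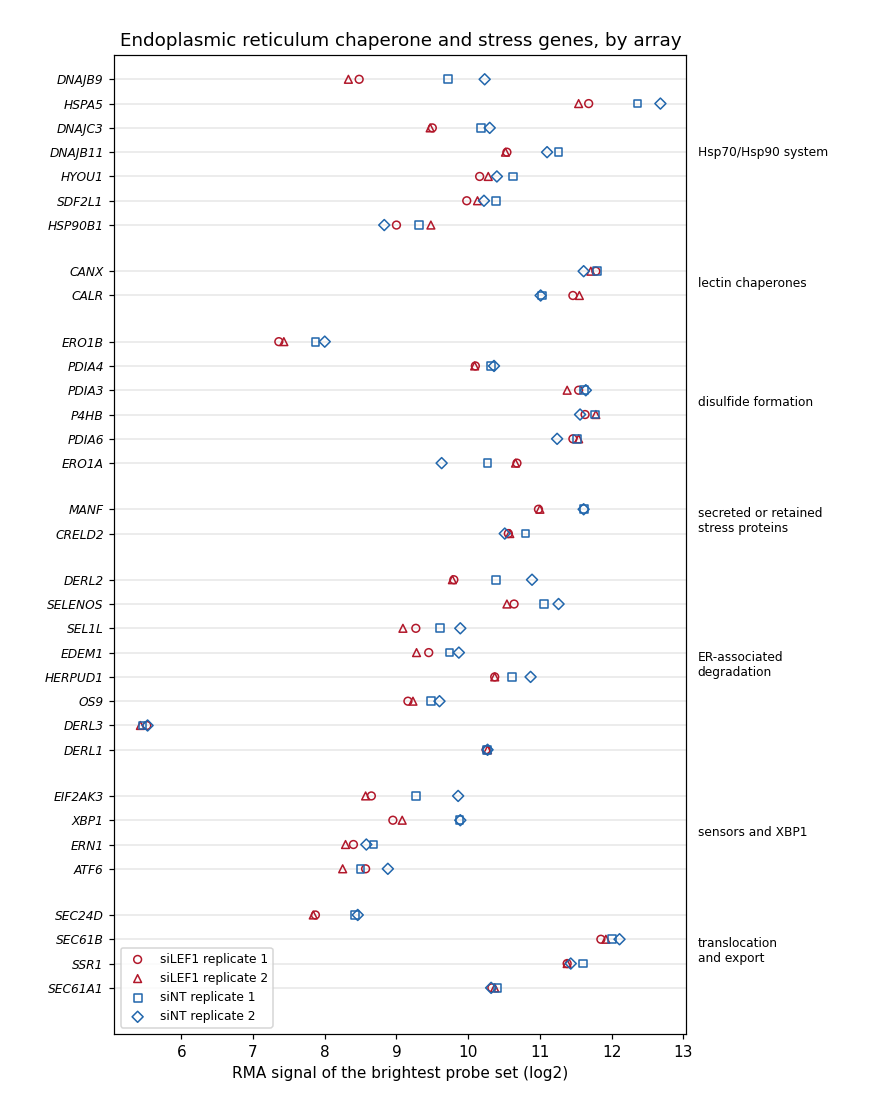
RMA signal (log2, horizontal axis) of the brightest probe set of each of the 33 members, grouped by role, where circles and triangles are siLEF1 replicates 1 and 2 and squares and diamonds are siNT replicates 1 and 2. Both siLEF1 arrays lie left of both siNT arrays in 22 members and right of them in CALR and ERO1A.

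Many ER chaperone promoters carry the ER stress response element (ERSE), the letters CCAAT and CCACG with 9 bases between them, to which NF-Y and ATF6 or XBP1 bind. RefSeq promoter windows (GRCh38.p14, 250 bases before to 50 after the start of the gene) were found for 30 of the 34 genes and searched on both strands. The exact ERSE was present in 7 of the 30 (23.3%) and in 22 of 27305 windows of all genes (0.0806%). ERSE-II, ATTGG and CCACG with 1 base between them, was in HYOU1, HERPUD1 and SDF2L1, 10.0% of the members against 0.0549% of all windows. The core of the XBP1 element, TGACGTG, was in HYOU1 only (3.33% against 2.00%). A core of the LEF1 and TCF motif, CTTTGA, was in 0 of the 30 windows and in 13.1% of all windows, which says only that these letters are not in these 300 bases.

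The members that share an exact ERSE did not share a direction, which is why their sites are shown. HSPA5, XBP1 and ERO1B had log2 differences of -0.91, -0.87 and -0.54, CRELD2 -0.08, CANX 0.04, HSP90B1 0.17 and CALR 0.49. The sites are written along the motif with up to 10 bases on each side, and capitals mark CCAAT and CCACG, in the order of the fold changes.
HSPA5: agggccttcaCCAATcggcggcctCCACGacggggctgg
XBP1: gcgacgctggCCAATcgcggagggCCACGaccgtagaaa
ERO1B: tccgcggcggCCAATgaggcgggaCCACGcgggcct
CRELD2: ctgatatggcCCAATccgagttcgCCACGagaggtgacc
CANX: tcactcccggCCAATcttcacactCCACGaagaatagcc
HSP90B1 distal: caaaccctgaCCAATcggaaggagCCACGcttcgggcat
HSP90B1 proximal: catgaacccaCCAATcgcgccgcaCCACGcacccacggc
CALR: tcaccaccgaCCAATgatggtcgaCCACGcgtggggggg

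The site ran on the same strand as the gene in HSPA5, XBP1, CANX and the distal site of HSP90B1. It began at position -66 in HSPA5 and at -52 in XBP1, counted from the start of the gene, and at -225 in CALR and -243 in ERO1B.

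Whole windows are given for HSPA5, for DNAJB9, the member with the most negative fold change, and for CALR, the higher one of the lectin genes. They lie at chr9:125241294-125241593 (minus strand), chr7:108569624-108569923 (plus strand) and chr19:12938359-12938658 (plus strand). Capitals mark the ERSE and every CCACG on either strand. DNAJB9 holds 0 exact ERSE and 2 CCACG, HSPA5 holds 1 and 1, and CALR 1 and 2, where matches may overlap. CCACG alone is common, in 70.0% of the members' windows and 37.9% of all windows. These matches are descriptions of the sequence, and binding was not measured.
HSPA5: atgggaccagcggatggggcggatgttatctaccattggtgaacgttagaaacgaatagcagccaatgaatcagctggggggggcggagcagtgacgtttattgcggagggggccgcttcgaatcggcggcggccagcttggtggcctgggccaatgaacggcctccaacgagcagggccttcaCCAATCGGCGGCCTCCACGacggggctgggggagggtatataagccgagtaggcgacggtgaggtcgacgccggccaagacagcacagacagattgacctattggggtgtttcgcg
DNAJB9: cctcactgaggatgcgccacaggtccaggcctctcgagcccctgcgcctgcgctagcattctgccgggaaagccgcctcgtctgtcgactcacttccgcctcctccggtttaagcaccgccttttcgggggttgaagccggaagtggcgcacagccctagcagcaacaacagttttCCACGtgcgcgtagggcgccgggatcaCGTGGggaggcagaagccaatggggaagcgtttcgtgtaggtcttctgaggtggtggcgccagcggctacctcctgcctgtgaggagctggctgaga
CALR: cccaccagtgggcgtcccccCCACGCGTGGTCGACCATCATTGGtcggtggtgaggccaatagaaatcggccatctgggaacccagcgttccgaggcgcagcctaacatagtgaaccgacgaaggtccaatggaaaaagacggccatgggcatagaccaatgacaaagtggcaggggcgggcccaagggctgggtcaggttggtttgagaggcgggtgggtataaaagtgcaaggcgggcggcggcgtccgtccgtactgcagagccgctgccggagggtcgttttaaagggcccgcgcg

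BiP is an Hsp70 chaperone whose cycle of substrate binding is driven by J-domain partners. DNAJB9 (ERdj4), a J-domain co-chaperone that is induced through XBP1 and assists degradation, had 8.48 and 8.33 on the siLEF1 arrays against 9.72 and 10.23 on the siNT arrays. It was 2.97-fold lower (log2 difference -1.57, SE 0.21, limma adjusted p = 0.0599, n = 2 arrays per group). DNAJB9 was the only member whose brightest probe set differed by over 2-fold, and the groups were separated by more than the gap between the siNT replicates. HSPA5 had 11.68 and 11.54 on the siLEF1 arrays against 12.36 and 12.68 on the siNT arrays. Its log2 difference was -0.91 (SE 0.17, limma adjusted p = 0.106), with no overlap of the groups. DNAJC3 (p58IPK), a BiP co-chaperone also known as an inhibitor of PERK, had 9.50 and 9.47 on the siLEF1 arrays against 10.18 and 10.30 on the siNT arrays, a difference of -0.75 on the log2 scale (SE 0.15, limma adjusted p = 0.110). In DNAJB11 (ERdj3), which brings unfolded substrates to BiP, the signals were 10.54 and 10.52 on the siLEF1 arrays against 11.26 and 11.10 on the siNT arrays, a difference of -0.65 on the log2 scale (SE 0.15, limma adjusted p = 0.142). In both co-chaperone genes the replicates of a group lay closer to each other than to the other group.

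The other members of the Hsp70 and Hsp90 system lay nearer to 0. HYOU1 (GRP170), a nucleotide exchange factor of BiP, had 10.16 and 10.28 on the siLEF1 arrays against 10.62 and 10.40 on the siNT arrays (log2 difference -0.28, limma adjusted p = 0.462). SDF2L1, which forms a complex with DNAJB11, had 9.98 and 10.13 on the siLEF1 arrays against 10.39 and 10.22 on the siNT arrays (log2 difference -0.25, limma adjusted p = 0.509). Both siLEF1 arrays were under both siNT arrays in these genes, by a small margin. HSP90B1 (GRP94), the Hsp90 of the ER, had 9.0 and 9.48 on the siLEF1 arrays against 9.31 and 8.83 on the siNT arrays, so the groups overlapped in this probe set, whose ID ends in _x_at and which may read related sequences (log2 difference 0.17, SE 0.24, limma adjusted p = 0.785).

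Calnexin and calreticulin hold newly made glycoproteins until they are folded. CALR had 11.46 and 11.55 on the siLEF1 arrays against 11.03 and 11.01 on the siNT arrays. The siLEF1 arrays were higher, with a difference of 0.49 on the log2 scale (SE 0.15, limma adjusted p = 0.207), opposite in sign to HSPA5. For CANX the signals were 11.78 and 11.71 on the siLEF1 arrays against 11.80 and 11.61 on the siNT arrays. The groups overlapped in this brightest probe set (log2 difference 0.04). A dimmer CANX probe set had 9.3 and 9.38 on the siLEF1 arrays against 9.06 and 8.27 on the siNT arrays. Its log2 difference was 0.67 (limma adjusted p = 0.301), and the remaining CANX probe sets had 0.06, -0.13 and 0.07.

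Disulfide bonds are made in the ER by isomerases of the PDI family, which are reoxidised by the oxidases ERO1A and ERO1B. The isomerase genes PDIA3, PDIA4, PDIA6 and P4HB had log2 differences of -0.17, -0.24, 0.12 and 0.03, with adjusted p from limma of 0.486 to 0.947. Their signals were 11.38 to 11.64 for PDIA3, 10.09 to 10.36 for PDIA4, 11.24 to 11.54 for PDIA6 and 11.56 to 11.78 for P4HB over the 4 arrays. In PDIA3 and PDIA4 the siLEF1 arrays were under the siNT arrays, and in PDIA6 and P4HB the groups overlapped. ERO1A had 10.68 and 10.66 on the siLEF1 arrays against 10.27 and 9.63 on the siNT arrays (log2 difference 0.72, SE 0.23, limma adjusted p = 0.221), and the siNT replicates lay 0.63 apart. Its second probe set, with a mean signal of 10.28 against 10.31 for the brightest, had 10.28 and 10.18 on the siLEF1 arrays against 10.29 and 10.37 on the siNT arrays (log2 difference -0.10), and its dimmest had a difference of 0.23, so no common direction was seen for ERO1A. ERO1B had 7.36 and 7.43 on the siLEF1 arrays against 7.87 and 8.0 on the siNT arrays (log2 difference -0.54, SE 0.15, limma adjusted p = 0.183).

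MANF and CRELD2 encode small soluble proteins that ER stress induces and that can be secreted. MANF had 10.98 and 11.00 on the siLEF1 arrays against 11.61 on both siNT arrays, a difference of -0.62 on the log2 scale (SE 0.14, limma adjusted p = 0.142). Here the replicates of each group differed by at most 0.02, far less than the groups. CRELD2 had 10.56 and 10.58 on the siLEF1 arrays against 10.80 and 10.51 on the siNT arrays, which overlapped (log2 difference -0.08).

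In ERAD, misfolded proteins are recognised in the lumen, passed through the membrane by the SEL1L-HRD1 ligase and derlins, and extracted to the proteasome. All 8 measured members of this machinery had log2 differences below 0, from -0.85 to -0.0029, where 46.5% of all genes were below 0. DERL1 (-0.0029) and DERL3 (-0.02) were close to 0. At an unadjusted p under 0.05, 4 of the 8 were lower, against 11.5% of all genes. For DERL2, a derlin of the ligase complex, the signals were 9.80 and 9.78 on the siLEF1 arrays against 10.39 and 10.89 on the siNT arrays (log2 difference -0.85, SE 0.20, limma adjusted p = 0.147). SELENOS, which links the extraction machinery to derlins, had 10.64 and 10.54 on the siLEF1 arrays against 11.06 and 11.26 on the siNT arrays (log2 difference -0.57, SE 0.16, limma adjusted p = 0.180). SEL1L, the scaffold of HRD1, had 9.27 and 9.09 on the siLEF1 arrays against 9.61 and 9.89 on the siNT arrays (log2 difference -0.57). In the brightest probe sets of these 3 genes the groups did not overlap. The dimmer DERL2 probe set overlapped between groups. The dimmer SEL1L probe sets had log2 differences of -0.84, -1.1 and 0.53, the last in a probe set that read 4.1 to 4.94. EDEM1, which trims mannose from glycoproteins that fail to fold, had 9.45 and 9.28 on the siLEF1 arrays against 9.74 and 9.87 on the siNT arrays (log2 difference -0.43). HERPUD1, a membrane adaptor of HRD1, had 10.37 on both siLEF1 arrays against 10.61 and 10.87 on the siNT arrays (log2 difference -0.37). Its other probe set had 0.31 but read only 4.3 to 4.9, near the array medians, and is not set against the brightest. The lectin gene OS9 had 9.16 and 9.23 on the siLEF1 arrays against 9.48 and 9.60 on the siNT arrays (log2 difference -0.34). The groups did not overlap in the brightest probe sets of these genes either. The remaining derlins did not follow DERL2. DERL1 had 10.25 and 10.27 on the siLEF1 arrays against 10.26 and 10.27 on the siNT arrays, and DERL3, the dimmest member at 5.43 to 5.53, also overlapped between groups.

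Of the sensors and XBP1, XBP1 had the smallest adjusted p and EIF2AK3 the largest fold change, 1.94-fold lower. XBP1 signals were 8.95 and 9.08 on the siLEF1 arrays against 9.88 and 9.89 on the siNT arrays, 1.83-fold lower (log2 difference -0.87, SE 0.15, limma adjusted p = 0.0918), and they were as far from siNT replicate 1 as from siNT replicate 2. EIF2AK3 (PERK) had 8.65 and 8.57 on the siLEF1 arrays against 9.27 and 9.86 on the siNT arrays (log2 difference -0.95, SE 0.22, limma adjusted p = 0.142). The siNT replicates of EIF2AK3 differed by 0.59, the widest gap between siNT replicates that ran in this direction among the members. ERN1 (IRE1) had 8.40 and 8.29 on the siLEF1 arrays against 8.68 and 8.58 on the siNT arrays (log2 difference -0.28, SE 0.15, limma adjusted p = 0.430). ATF6 had 8.57 and 8.25 on the siLEF1 arrays against 8.50 and 8.88 on the siNT arrays, so its groups overlapped (log2 difference -0.28, SE 0.20, limma adjusted p = 0.566).

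Translocation into the ER runs through the SEC61 channel, and export in vesicles uses the COPII coat. SEC24D, a cargo adaptor of that coat, had 7.87 and 7.84 on the siLEF1 arrays against 8.42 and 8.46 on the siNT arrays (log2 difference -0.59, SE 0.14, limma adjusted p = 0.156), with tight replicates in both groups. The channel subunits SEC61B and SEC61A1 had log2 differences of -0.17 and -0.02, and SSR1, a subunit of the translocon-associated protein complex, one of -0.14. Over the 4 arrays SEC61B ranged from 11.85 to 12.11, SEC61A1 from 10.32 to 10.41 and SSR1 from 11.38 to 11.60. None of these 3 had an unadjusted p under 0.05.

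**Figure D2:**
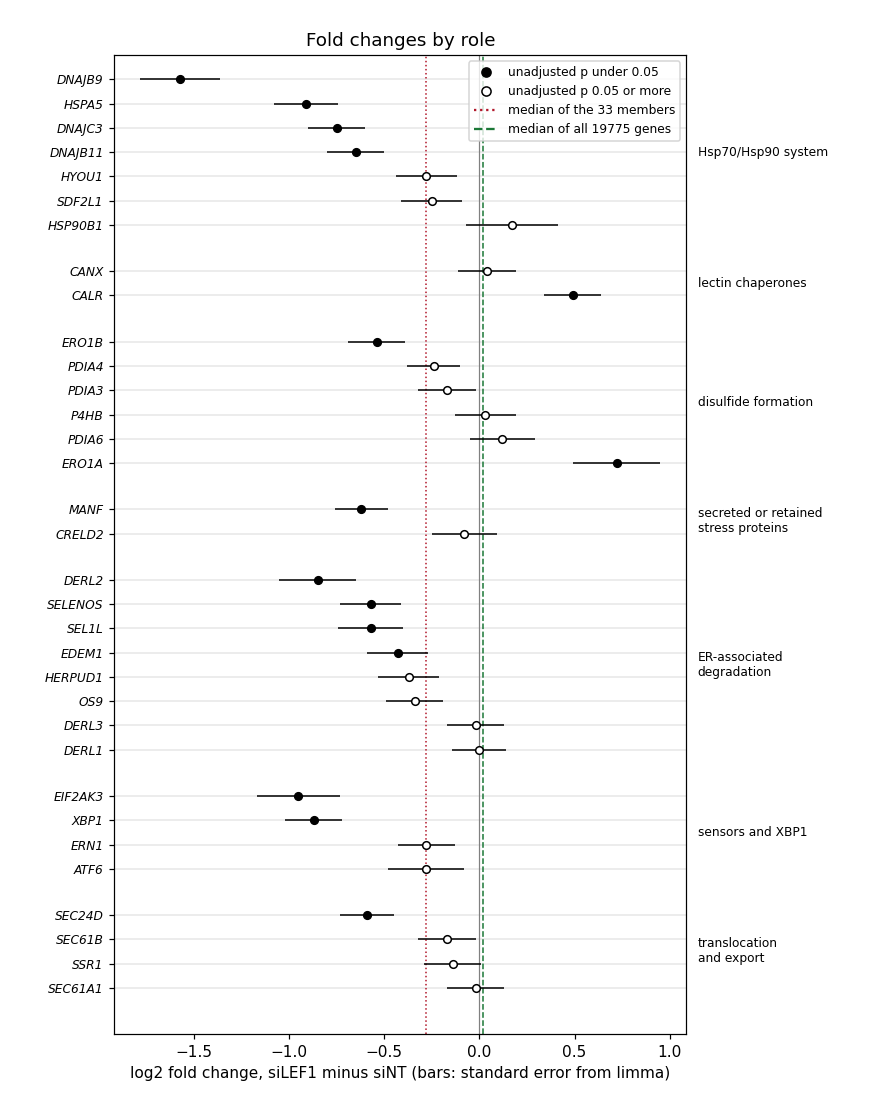
Log2 fold change, siLEF1 minus siNT, of the 33 members (points) with the SE from limma (bars), grouped by role, where filled points have an unadjusted p under 0.05. The dotted line is the members' median of -0.28 and the dashed line the median of all genes, 0.02. Below 0 lie 27 members (81.8%), against 46.5% of all genes.

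Over all 33 members the siNT replicates did not differ in 1 direction, with a median difference of 0.02 (replicate 2 minus replicate 1) and values of -0.63 to 0.59. The gap was 0.59 in EIF2AK3, 0.5 in DNAJB9 and DERL2, 0.32 in HSPA5 and -0.63 in ERO1A. In these genes siNT replicate 2 lay further from the siLEF1 arrays. Of the 13 members lower at an unadjusted p under 0.05, all but DNAJB11 (-0.16) and MANF (-0.01) were higher on siNT replicate 2. The part of this gap in the differences was not tested. Against siNT replicate 1 alone, 30 of the 33 members were lower in value in siLEF1 cells, with a median of -0.28, and against siNT replicate 2 alone, 25 were lower, with a median of -0.26. These comparisons share the siLEF1 arrays. Of all 19775 genes, 9217 were lower against siNT replicate 1 and 9444 against siNT replicate 2. The siLEF1 replicates differed by a median of -0.01. For DNAJB9 the difference was -1.32 from siNT replicate 1 and -1.82 from siNT replicate 2, and for HSPA5 it was -0.75 and -1.07. ERO1A differed by 0.41 from siNT replicate 1 and by 1.04 from siNT replicate 2. When siNT replicate 1 was left out of the fit, DNAJB9, DERL2 and EIF2AK3 were called lower and ERO1A higher. The same fit called 1287 probe sets lower and 595 higher on the whole array, against 100 and 13 with all arrays. Each fit without 1 array leaves a lone array in a group, so its calls are not read as a result about the members.

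The members were read by 84 probe sets in all, and the pattern was weaker over these than over the brightest. Their median log2 difference was -0.09, against 0.04 over all probe sets, 24 were lower at an unadjusted p under 0.05 (28.6%) and 8 were higher (9.52%), against 8.79% and 6.85% of all probe sets. Of the 84, 2 were called lower and 0 higher, against 0.183% and 0.0238% of all probe sets. On every array 7 of the 84 lay under the array median. The called probe sets were the dimmer ones of DNAJB9, with log2 differences of -1.82 and -1.56 and an adjusted p of 0.0477 from limma in each, so DNAJB9 passed in 2 of its 3 probe sets and missed the threshold in the brightest. Of the 26 members with several probe sets, all probe sets were below 0 in 12, all above 0 in 4 and on both sides in 10. All 4 probe sets of DNAJC3 lay between -0.96 and -0.75, and the 3 of CALR between 0.49 and 0.71. The second probe set of ERO1B had 4.68 and 5.06 on the siLEF1 arrays against 6.68 and 8.23 on the siNT arrays, a log2 difference of -2.59 (limma adjusted p = 0.0970), much larger than in its brightest one. For other members the probe sets disagreed. ATF6 had -0.28, 0.58, 0.71 and -0.24, ERO1A had 0.72, -0.10 and 0.23, and the dimmer probe sets of HSPA5 and DERL2 had 0.06 and -0.04. The dimmer probe set of XBP1 read 3.43 to 3.96, under the median of every array, and its difference of 0.24 is not set against the brightest. Which transcript forms these probe sets read was not examined.

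**Figure D3:**
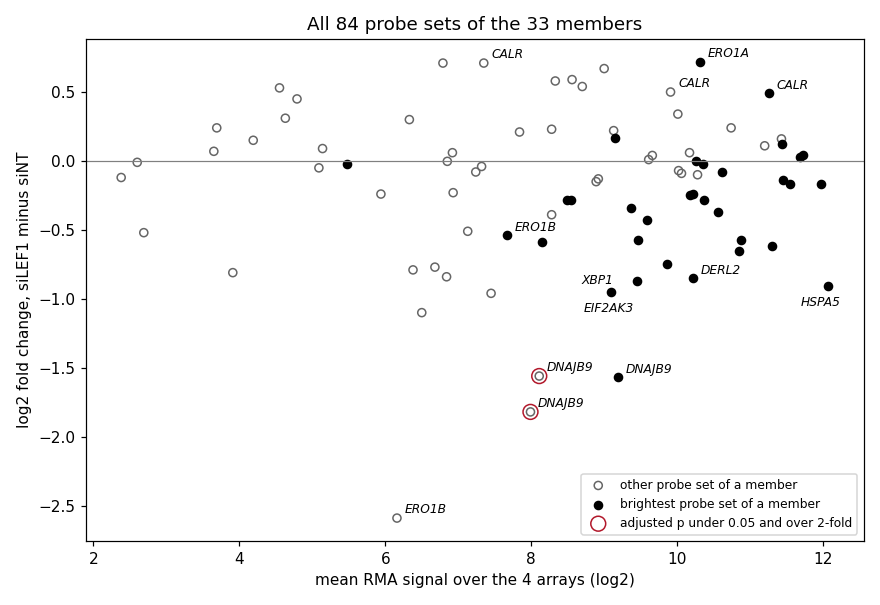
Log2 fold change, siLEF1 minus siNT (vertical axis), against the mean RMA signal over the 4 arrays (log2, horizontal axis) for the 84 probe sets of the members. Filled points are the brightest probe set of each member, open points the others, and the red rings mark the 2 called probe sets, both of DNAJB9.

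A further 145 genes of ER folding, degradation, translocation and glycosylation, vesicle transport and stress signalling were listed by their role, with earlier results of these data known, of which 138 had a probe set of their own. At an unadjusted p under 0.05, 31 of these were lower (22.5%) and 7 were higher (5.07%), against the 11.5% and 7.00% of all genes. Among genes with a mean signal of at least 8 the shares were 13.9% and 11.8%. By list, the lower share ran from 17.4% in degradation to 39.1% in stress signalling, and the higher share from 3.12% to 8.70%. The median log2 difference of the 138 genes was -0.14. Of these 138 genes 2 were called, both lower. Of all 19775 genes, each read by its brightest probe set, 52 were called lower and 13 higher. SEC61A2, a second form of the channel's main subunit, had 6.35 and 6.69 on the siLEF1 arrays against 8.16 and 8.60 on the siNT arrays (log2 difference -1.86, limma adjusted p = 0.0477). TRIB3, a pseudokinase induced by ATF4 and DDIT3, had 10.43 on both siLEF1 arrays against 11.81 and 11.74 on the siNT arrays (log2 difference -1.35, limma adjusted p = 0.0454).

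Of these lists, stress signalling had the most negative median, -0.27 over 23 genes, with 9 lower and 1 higher at an unadjusted p under 0.05. DDIT3, the transcription factor CHOP, had 8.33 and 8.22 on the siLEF1 arrays against 10.33 and 11.35 on the siNT arrays (log2 difference -2.57, limma adjusted p = 0.0562). PPP1R15A (GADD34), which reverses the effect of PERK on translation, had 6.85 and 6.65 on the siLEF1 arrays against 8.37 and 9.60 on the siNT arrays (log2 difference -2.23, limma adjusted p = 0.0914). In both genes siNT replicate 2 was the higher control by more than 1 log2 unit. The kinase MAP3K5, which acts downstream of IRE1, was the higher one, at 0.80. Of 29 transport genes 6 were lower and 1 was higher by the same rule, with a median of -0.21. Among them SAR1B and the coat subunits SEC23B and SEC31A, which build COPII vesicles with SEC24D, had log2 differences of -0.84, -0.62 and -0.70 and TMED10, a cargo receptor, one of 0.48.

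For translocation and glycosylation the counts were 6 lower and 1 higher of 32 (median -0.13), and next to SEC61A2 stood SEC62 at -0.65 and SRP19 at -0.49, with TRAM2 at 0.71. In degradation 4 were lower and 2 higher of 23 (median -0.12), among them HERPUD2 at -0.65, RNF121 at -0.68, RHBDD1 at -0.54, SVIP at 0.40 and NPLOC4 at 0.40. In folding 6 were lower and 2 higher of 31 (median -0.05). Here DNAJC18, a J-domain gene, had -0.97, CRELD1, the relative of CRELD2, -0.84, and CDNF, the relative of MANF, -0.59, whereas PRDX4, a peroxidase that takes up oxidising equivalents in the ER, had 0.52 and FKBP11, a prolyl isomerase, 0.45. CDNF read 2.75 to 3.38, under the median of every array, and its difference is not set against that of MANF. None of the genes named here from these 3 lists, apart from SEC61A2, passed.

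**Figure D4:**
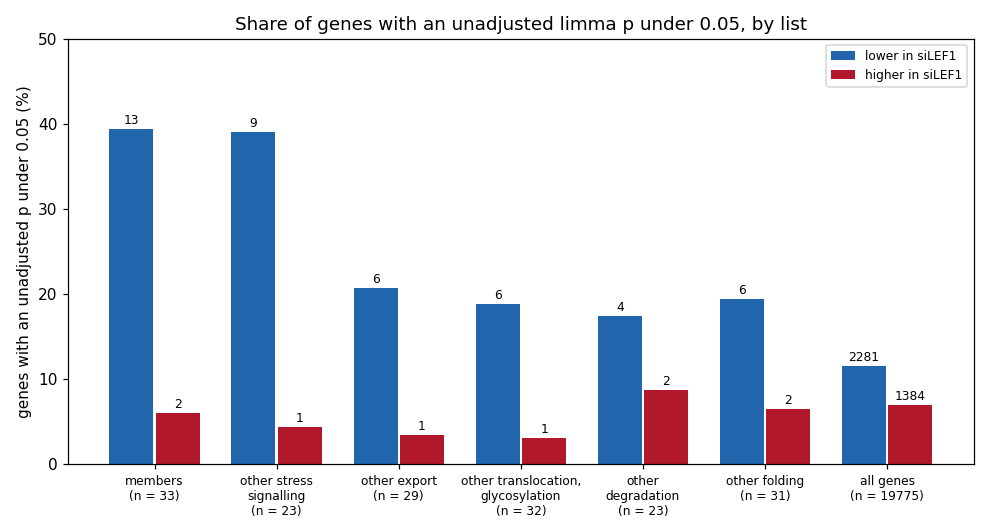
Percent of genes with an unadjusted limma p under 0.05 (vertical axis) that were lower (blue) or higher (red) in siLEF1 cells, for the 33 members, the 5 lists of other pathway genes and all 19775 genes, with the number of genes above each bar. The members had 39.4% lower, other stress signalling genes 39.1% and all genes 11.5%. Genes with a mean signal of at least 8, which are not drawn, had 13.9% lower and 11.8% higher.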

How the data were processed

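Affymetrix HG-U133 Plus 2.0 arrays were run on RNA of 4 Jurkat samples, and groups were taken from the sample labels. The authors made 1 log2 signal per probe set and array by RMA. The submitters' processing notes name Affymetrix Expression Console 1.1. Arrays were not pooled. Whether arrays of non-transfected cells entered the same RMA run is not given in the sources used here.

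After 62 control probe sets were left out, limma (3.58.1, under R 4.3.3) compared siLEF1 with siNT by lmFit and eBayes, 2-sided, with Benjamini-Hochberg adjustment over 54613 probe sets. Residual degrees of freedom were 2, and the eBayes prior had 4.30. The paper's methods name a comparison of 3 groups, and here 2 were compared. Symbols came from the platform annotation, updated by Entrez number (19735 of 19777 found). A total of 41091 probe sets had 1 symbol, 1801 had several and 11721 none, and the last are unnamed here, not without a gene. The script was tested on simulated data.

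The members and lists were chosen with earlier results of these data known. Full values were given for HSPA5, XBP1, the sensors and the 12 members with the smallest p, and for other pathway genes up to 3 per direction and list. Other members were given by array values or by their range over the 4 arrays. The dimmer probe sets and the printed promoters were chosen after their values were seen. No set test was made, and a planned search of protein ends was not run, because no protein table was used here. Alternatives tried were to require a mean signal of 6 or more, eBayes with trend and robust settings, an F test without moderation, the replicate block, 2 centrings of the arrays, removal of _x_at and _s_at probe sets, 1 value per gene (brightest or mean), no fold threshold and each array left out.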

Additional observations from a re-analysis of the deposited data

How the results depend on the processing

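The filter, the other variance models, the replicate block and the brightest-only fit leave a member's log2 fold change as it is. Of the 33 members 22 kept its sign in those of the remaining alternatives that were run for them (2 centrings, probe set choices, arrays left out), and DNAJB9 ran from -1.82 to -1.32 with an adjusted p from limma of 0.000936 to 0.719. The count of members called lower, 0, was 1 (DNAJB9) with trend and robust eBayes, with the replicate block, without _x_at and _s_at probe sets, with the brightest probe set per gene only and with the mean of the probe sets of a gene, and 5 with arrays centred on housekeeping genes. Leaving out 1 array gave 0 to 3 lower (DNAJB9, DERL2 and EIF2AK3 without siNT replicate 1). It gave 0 to 1 higher (ERO1A, also without siNT replicate 1). These fits assume that a lone array varies like the other group, and their calls are not read as a result about the members. The median of -0.28 was -0.53 with housekeeping centring, -0.22 without _x_at and _s_at probe sets, where 26 members remained, and -0.32 to -0.26 without 1 array.

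On the whole array, 100 probe sets were called lower and 13 higher. The counts were 4 and 1 with the signal filter, 0 and 0 with the F test (4393 at an unadjusted p under 0.05), 130 and 20 with trend and robust eBayes, 977 and 120 with the replicate block, 2129 and 33 with housekeeping centring, 171 and 29 with the brightest probe set per gene, 172 and 25 with gene means, and 0 to 1287 lower and 0 to 595 higher without 1 array. The labels do not say whether same-numbered arrays are paired. Deviations of same-numbered arrays correlated at -0.155, a single value that cannot decide how the cultures were made. A crossed replicate block, added after this was seen, called 763 lower and 159 higher, 1 of them a member.

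The sign turned in 11 members, HERPUD1 (-0.37) and ATF6 (-0.28) among them. With housekeeping centring CANX and P4HB had -0.21, PDIA6 -0.13 and HSP90B1 -0.07. Without _x_at and _s_at probe sets SSR1 had 0.54, HERPUD1 0.31 and DERL3 0.15, and with gene means ATF6 had 0.19, SSR1 0.20, DERL1 0.09 and DERL3 0.07. The values of 0.31 and 0.15 came from dim probe sets, which read 4.3 to 4.9 for HERPUD1 and 3.78 to 4.44 for DERL3. Without 1 array P4HB ranged from -0.07 to 0.14, HSP90B1 from -0.07 to 0.42, PDIA6 from -0.02 to 0.26, CANX from -0.06 to 0.14, CRELD2 from -0.23 to 0.06, DERL3 from -0.06 to 0.02, DERL1 from -0.01 to 0.01 and SEC61A1 from -0.06 to 0.03. The cause of these turns was not tested.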
